A study of Homo sapiens with 2 samples.

Results

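AP-1 is a family of leucine zipper transcription factors made of FOS and JUN proteins, here described with BATF3 and the small MAF proteins MAFF and MAFK. The probe sets taken were those of the Affymetrix HG-U133 Plus 2.0 array that the platform annotation pairs with only 1 gene, when that gene was FOS, FOSB, FOSL1, FOSL2, JUN, JUNB, JUND, BATF3, MAFF or MAFK. They numbered 20 of 41091 single-gene probe sets and stood for 9 of the 10 genes, out of 19775 genes named on the arrays. MAFK was paired with no such probe set and is not described further. The arrays held total RNA from PC-3 cells, a human prostate cancer cell line that grows without androgen. One culture had been exposed for 24 h to RD (riccardin D), a macrocyclic bisbibenzyl from a liverwort, and the other served as the control, with 1 array per condition. The sample labels give no dose, and the title of the supplementary gene table of the study gives 10 µmol/L. The treatment protocol names DMSO as the vehicle of the control, whereas its source name reads as untreated cells. The study used the arrays to ask which genes changed in cells exposed to RD.

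FOS and JUN proteins bind DNA as pairs. A FOS protein needs a partner, usually a JUN protein, whereas JUN proteins can also pair among themselves, and the pairs bind the sequence known as the TPA response element. FOS, FOSB and JUN are immediate early genes whose transcripts rise within minutes of growth factors or stress and decay quickly. Small MAF proteins carry a leucine zipper but no activation domain of their own, and they bind DNA as pairs with each other or with NRF2 and its relatives.

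Each value is a MAS5 signal, a linear intensity from which background and mismatch signal have been subtracted, and the level of one probe set cannot be set against that of another. The trimmed mean signals of the control and RD arrays were 495.8 and 495.9, and no further scaling was applied. A signal reached the floor when it was at least 66.9, the median of all signals of both arrays. Genes were counted by their brightest probe set. A gene or probe set was called higher or lower with RD if its signals were 2-fold or more apart and at least the higher one reached the floor. If the lower signal did not reach the floor, the fold was taken against the floor and is written as at least N-fold. Values given as a pair are the control signal followed by the RD signal. With 1 array per condition there was no spread between cultures, so no test of RD was made and no p-value is given. The error that could be measured was how far probe sets of 1 gene scattered in their log2 differences, with an SD of 0.76 for probe sets at or above the floor and 0.34 for those with a signal of at least 377.4, the 75th percentile. This scatter leaves out any difference between the cultures other than RD, which cannot be told apart from RD.

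Of the epithelial markers, KRT18 was bright on both arrays (10224.2 in the control, 15416.6 with RD) and KRT8 reached the floor on both, whereas KRT5, EPCAM and CDH1 lay under the floor on both arrays. Of the markers of other cell types, judged by their brightest probe sets, none of the 4 leukocyte genes with a probe set, 2 of 5 fibroblast genes and 1 of 4 endothelial genes reached the floor. None of them was counted as higher or lower on that basis. Dimmer probe sets of ITGAM (86.3 and 22.6) and COL1A1 (68.0 and 14.8) were past 2-fold by their deposited signals, but at least 1.29-fold and 1.02-fold lower against the floor. Of the 3 androgen-responsive genes with a probe set, KLK2 and TMPRSS2 lay under the floor on both arrays, and KLK3 reached it by 1 of its 3 probe sets.

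FOS, FOSB and MAFF had signals more than 2-fold higher with RD, for FOS and FOSB by a single probe set each. The JUN family had modestly higher signals, and BATF3 had a lower one. FOSL1 and FOSL2 differed by less than the scatter of bright probe sets when judged by their brightest. Of the 9 genes measured, 3 were counted as higher in RD-treated cells, namely those first 3, and none was counted as lower. Over all 12818 named genes at or above the floor, 12.1% were counted as higher and 13.3% as lower, against 33.3% and none of the members. The members were chosen with earlier results of these data known, so this contrast is a description and no test. The RD signal was above the control signal in 8 of the 9 genes, BATF3 being the exception, and in 49.9% of all genes. The median log2 difference (RD minus control) of the members was 0.53, and that of all genes was -0.0022. All 9 genes reached the floor by their brightest probe set, which stood for its gene. In such bulk RNA, fewer cells with a transcript and less of it per cell cannot be told apart.

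By probe set, 18 of 20 reached the floor on at least 1 array, and 5 of these were counted as higher (27.8%, against 13.4% of all single-gene probe sets at or above the floor). None was counted as lower, against 13.2%. Of the 18, 17 had a higher RD than control signal, against 51.0% of all such probe sets. The single probe sets of FOS and FOSB, both probe sets of MAFF and 1 of the 4 probe sets of JUN made up the 5.

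**Figure D1:**
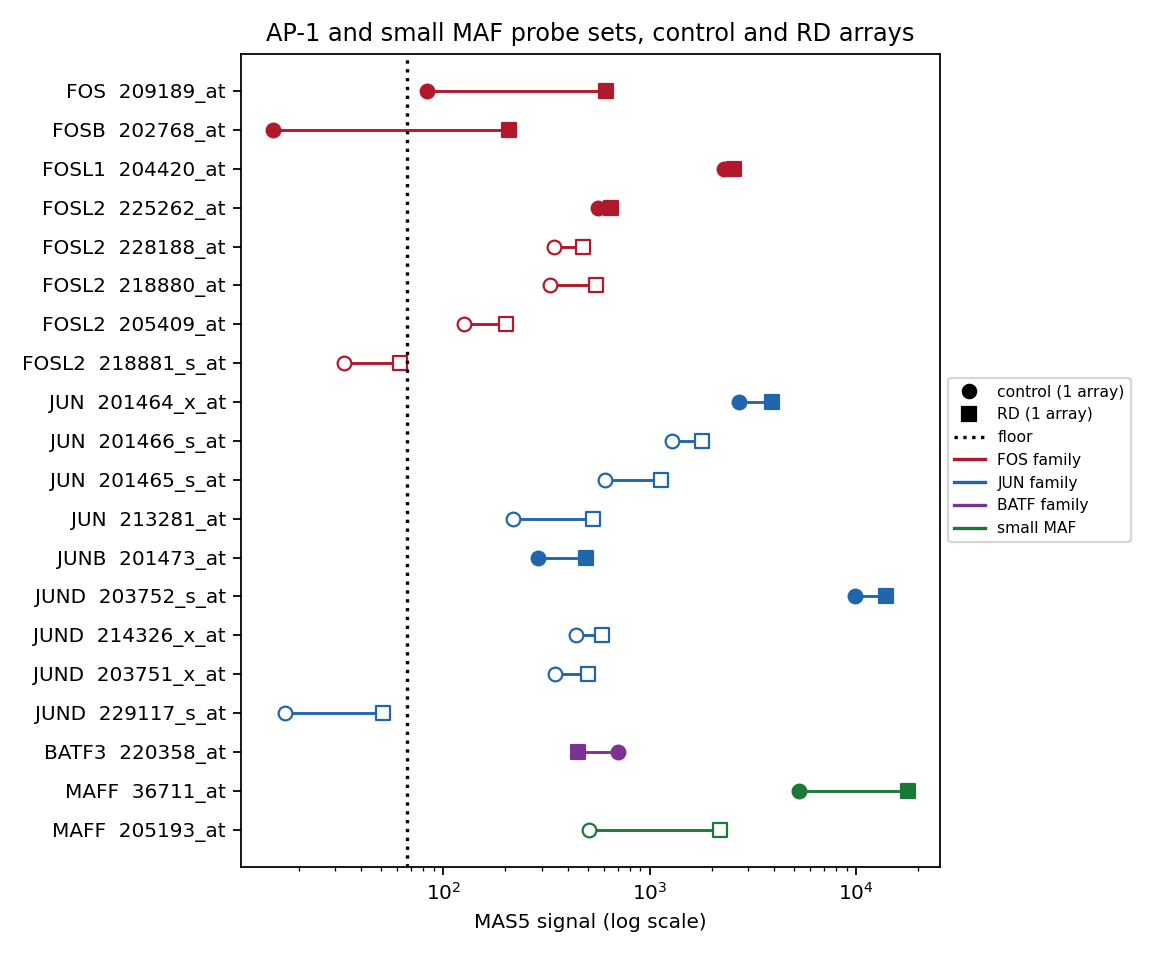
MAS5 signal (log scale) of each of the 20 probe sets in control cells (circles) and with RD (squares), with a line between them and colours for families. Filled symbols are the probe set that stands for its gene, open symbols its others, and the floor of 66.9 is dotted. The square lies to the right of the circle in 19 of 20 probe sets, BATF3 being the exception.

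In the FOS family, the immediate early members FOS and FOSB were counted as higher, and the FOS-related members FOSL1 and FOSL2 were not. FOS, the founding member of the family, went from a signal of 83.5 in the control to 617.6 with RD by its only probe set, 209189_at. This was 7.40-fold higher, from a control signal just above the floor. It ranked 179 of the 12818 genes by size of increase, and 38 when signals under the floor were raised to the floor.

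FOSB, a close relative of FOS that is also an immediate early gene, went from a signal of 15.0 in the control to 209.2 with RD by its only probe set, 202768_at. The control signal lay under the floor, so FOSB was at least 3.13-fold higher. The deposited signals themselves differed by 3.80 on the log2 scale, which is not a bound.

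FOSL1, which encodes FRA-1, a FOS-related protein that lacks the C-terminal activation domain of FOS, was far above the floor on both arrays. Its signal went from 2297.6 in the control to 2561.8 with RD, or 1.11-fold higher. The log2 difference of 0.16 was smaller than the scatter of 0.34 between bright probe sets of a gene, so no difference could be told for FOSL1.

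FOSL2, which encodes the related FRA-2, had 5 probe sets, all with a higher RD than control signal and none past 2-fold. Its brightest, 225262_at, went from 562.2 in the control to 646.7 with RD (1.15-fold higher), a log2 difference of 0.20 that was also smaller than the scatter. The other 3 that reached the floor differed more. Probe set 228188_at read 343.9 and 473.3 (1.38-fold), 218880_at read 329.0 and 547.8 (1.67-fold), and 205409_at read 126.7 and 202.0 (1.59-fold). The fifth, 218881_s_at, read 32.9 and 62.1, under the floor on both arrays, and gives no fold. The median log2 difference over the 4 probe sets at or above the floor was 0.57, so the size of the FOSL2 difference depended on the probe set.

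The 3 JUN family genes had higher RD than control signals by every probe set, and none was counted as higher by its brightest. JUN is the main partner of FOS, and its protein is activated by the JNK kinases. Its brightest probe set, 201464_x_at, went from 2697.6 in the control to 3904.1 with RD (1.45-fold higher). Probe set 201466_s_at read 1276.6 and 1795.9 (1.41-fold), and 201465_s_at read 604.5 and 1138.8 (1.88-fold). The dimmest, 213281_at, read 217.5 and 530.3, which is 2.44-fold higher and the only JUN value past 2-fold. It is also the only JUN probe set without a suffix in its name that marks probes shared between transcripts (s) or matching other sequences (x). The log2 differences of the 4 probe sets ran from 0.49 to 1.29, with an SD of 0.37. With only probe sets without a suffix, JUN would be counted as higher.

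JUNB, which often acts against JUN in growth control, went from a signal of 289.1 in the control to 491.1 with RD by its only probe set. It was 1.70-fold higher, short of 2-fold, and 17.4% of all genes had a larger increase.

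JUND, the JUN family member that cells also express at rest, had 4 probe sets, all with such a suffix. Its brightest, 203752_s_at, went from 9903.0 in the control to 13974.2 with RD (1.41-fold higher). Probe sets 203751_x_at (348.8 and 501.6, 1.44-fold) and 214326_x_at (438.3 and 586.2, 1.34-fold) differed by nearly the same factor, and the SD of the 3 log2 differences was 0.054. The fourth, 229117_s_at, read 17.1 and 50.9, under the floor on both arrays. The log2 differences of the brightest probe sets of JUN (0.53), JUND (0.50) and JUNB (0.76) were larger than the scatter of 0.34 between bright probe sets of a gene. That scatter is an SD, so a difference past it can still be error of measurement. Larger increases than these were found in 24.7%, 26.1% and 17.4% of all genes, in the same order.

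BATF3, a small leucine zipper protein that pairs with JUN proteins and is known for its part in dendritic cells, was the only member with a lower RD signal. Its only probe set, 220358_at, went from 706.2 in the control to 449.2 with RD, which is 1.57-fold lower and short of 2-fold. The log2 difference of -0.65 was larger than the scatter of 0.34, and 22.4% of all genes had a lower value.

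MAFF was counted as higher by both of its probe sets, which were bright on both arrays. Probe set 36711_at went from 5312.2 in the control to 17849.6 with RD (3.36-fold higher), and 205193_at read 511.1 and 2198.2 (4.30-fold higher). The 2 log2 differences, 1.75 and 2.10, were both several times the scatter of 0.34. MAFF ranked 533 of 12818 genes by its brightest probe set, and 207 when signals under the floor were raised to the floor. Among the 3 genes counted as higher, it was the only one that was far above the floor in control cells as well.

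**Figure D2:**
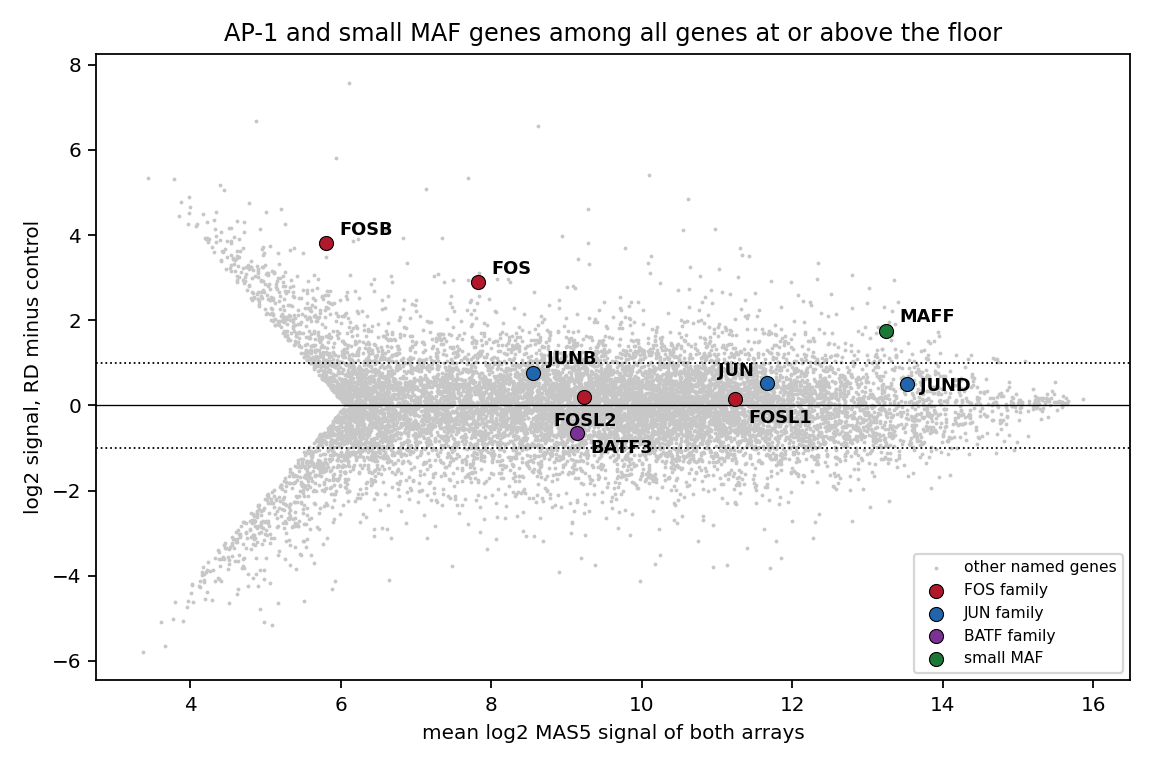
Difference in log2 signal (RD minus control, vertical) against the mean log2 signal of both arrays (horizontal) for all genes that reached the floor, each by its brightest probe set. Grey points are the other named genes, coloured points are the 9 members by family, and dotted lines mark 2-fold. FOSB and FOS lie among the dimmer genes, where the grey cloud is wider, MAFF lies at the bright end, and the JUN family lies between 0 and the upper dotted line.

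The 250 bases before the annotated start were read for the 7 members that the RefSeq promoter table (GRCh38.p14) holds, namely FOS, FOSB, FOSL2, JUN, JUNB, JUND and MAFF. The stretches of FOS, FOSB and MAFF are shown because these 3 genes were counted as higher in RD-treated cells, and that of JUN is shown for comparison. Capitals mark TGACGT, the core of the cyclic AMP response element (CRE), the full element TGACGTCA, and TGACATCA, the variant of the AP-1 site for which the JUN promoter is known.
FOS, chr14:75278578-75278827, + strand: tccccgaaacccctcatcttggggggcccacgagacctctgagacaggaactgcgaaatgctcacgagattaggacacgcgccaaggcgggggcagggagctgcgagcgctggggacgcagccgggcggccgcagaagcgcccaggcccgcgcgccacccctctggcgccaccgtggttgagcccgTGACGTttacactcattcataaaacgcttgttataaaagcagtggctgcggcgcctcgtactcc
FOSB, chr19:45467746-45467995, + strand: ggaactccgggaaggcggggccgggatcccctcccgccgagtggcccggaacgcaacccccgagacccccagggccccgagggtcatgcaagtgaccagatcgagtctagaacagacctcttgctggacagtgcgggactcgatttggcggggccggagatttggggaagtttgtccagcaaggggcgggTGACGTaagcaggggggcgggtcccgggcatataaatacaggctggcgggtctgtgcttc
MAFF, chr22:38201744-38201993, + strand: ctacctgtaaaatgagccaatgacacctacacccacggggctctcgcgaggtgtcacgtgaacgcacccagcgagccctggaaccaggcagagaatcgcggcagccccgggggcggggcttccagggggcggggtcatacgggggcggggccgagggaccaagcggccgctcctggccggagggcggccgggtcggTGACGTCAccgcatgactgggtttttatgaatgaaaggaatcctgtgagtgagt
JUN, chr1:58784048-58784297, - strand: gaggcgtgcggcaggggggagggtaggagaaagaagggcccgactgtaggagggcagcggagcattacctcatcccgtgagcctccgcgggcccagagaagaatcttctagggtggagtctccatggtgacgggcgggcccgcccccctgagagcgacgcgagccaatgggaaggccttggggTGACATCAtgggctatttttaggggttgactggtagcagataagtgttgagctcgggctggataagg

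The plus strand of FOS held TGACGT with its first base 64 bases before the start, and FOSB held it 60 bases before. MAFF, which has 2 entries in the table, held the full CRE 54 bases before its first start and none before its second. JUN held TGACATCA 67 bases before its start. FOSL2, whose signal differed less than 2-fold, held TGACGT at 66 bases, so the match was not limited to the genes counted as higher. JUND held the full CRE 200 bases before its start and TGACGT on the minus strand 87 bases before. Searched on both strands, TGACGT occurred in 5 of the 8 member stretches and in 7.10% of all 35116 stretches of the table, and TGACGTCA, which contains it, in 2 of 8 and in 1.65%. TGACATCA occurred in 1 of 8 and in 2.37%. The member stretches had a GC content of 62.0% to 74.8%, against a median of 58.0% over the table.

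The TPA response element TGACTCA (4.20% of all stretches), the MAF core TGCTGAC (3.43%), the element TGATGNAA bound by ATF4 with C/EBP proteins (3.14%) and the CArG box of serum response factor (1.16%) were in none of the 8 member stretches. CCAAT occurred in those of JUN, JUNB, JUND and the first of MAFF (32.0% of all stretches), and TATAAA in those of FOS, FOSB and JUNB (10.7%). These matches describe letters in the windows, and binding was not measured. Bases farther upstream were not searched, so a motif missing from a window, such as the CArG box in FOS, may still lie beyond it. The motifs were chosen after the stretches had been seen.

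**Figure D3:**
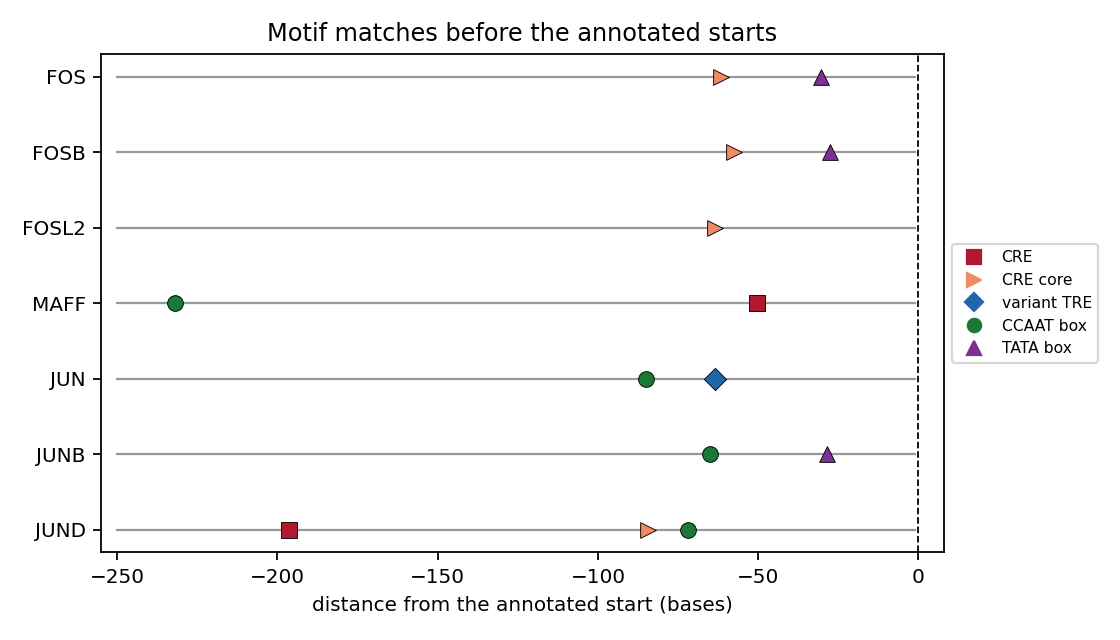
Motif matches in the 250 bases before the annotated start (dashed line, distance in bases on the horizontal axis) of 7 genes, with 1 row per gene and the first start for MAFF. A CRE core inside a full CRE is not drawn again. FOS, FOSB, FOSL2 and MAFF carry a CRE or its core, and JUN carries the variant AP-1 site, between 54 and 67 bases before the start.

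The other bZIP proteins that pair with JUN or FOS proteins had 6 genes at or above the floor, with a median log2 difference of 0.08. Of these, 1 was counted as higher (16.7%, against 12.1% of all genes) and none as lower (against 13.3%). The gene counted as higher was ATF3, a stress-induced relative of the CREB and ATF proteins, which went from 812.5 in the control to 9306.0 with RD (11.5-fold higher). Its 2 other probe sets read 213.4 and 1643.5 (7.70-fold), and 35.3 and 234.7 (at least 3.51-fold against the floor). For CREB5, a dimmer probe set read 31.2 and 88.4, past 2-fold by its deposited signals but at least 1.32-fold higher against the floor. With the median over a gene's probe sets, 2 genes of this list were counted as higher, when 12.6% of all genes were.

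Of the other MAF genes, 2 reached the floor. MAFG, the third small MAF, went from 421.5 in the control to 1226.6 with RD (2.91-fold higher), and by its other probe set 46.8 and 314.9 (at least 4.71-fold). NRL, a large MAF known from photoreceptors, read 104.2 and 46.1, which is at least 1.56-fold lower against the floor and so past 2-fold only by its deposited signals. Both small MAF genes with a probe set, MAFF and MAFG, were thus counted as higher. Both MAFG probe sets carry a shared-sequence suffix, so MAFG had no value without such probe sets. By its brightest it fell short of the 3-fold threshold.

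Of the CNC proteins, which pair with small MAFs, 4 genes reached the floor. NFE2L2, which encodes NRF2, the main activator of antioxidant genes, went from 5803.6 in the control to 13388.8 with RD (2.31-fold higher). NFE2L3, a relative of NRF2, read 142.2 and 48.4 (at least 2.13-fold lower), while its other probe set read 53.0 and 84.4, so the direction for NFE2L3 depended on the probe set. The list had a median log2 difference of 0.33.

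Of the 13 listed genes of the MAP kinase arms that act on AP-1, 10 had a probe set and reached the floor. Of these 10, the median log2 difference was 0.03 by brightest probe sets. None was counted as higher (against 12.1% of all genes) and 1 as lower (10.0%, against 13.3%). MAPK3, which encodes ERK1, was that gene and went from 615.0 in the control to 301.2 with RD (2.04-fold lower), a value that fell short of 2-fold when 17.1, the 25th percentile of the signals, was added to each signal. By their brightest probe sets, none of the 6 genes of serum response factor and its cofactors, which act on the FOS promoter, was past 2-fold. Of all genes, 12.1% were counted as higher and 13.3% as lower, and 6 genes are few to set beside these shares. The log2 differences of the 6 genes ran from -0.67 to 0.37. Among their dimmer probe sets, 1 of ELK4 read 28.6 and 136.8 (at least 2.04-fold higher), and 1 of MRTFA read 101.6 and 10.4 (at least 1.52-fold lower). Among dimmer probe sets of the MAP kinase genes, 1 of MAPK11 read 85.0 and 6.3 (at least 1.27-fold lower). For MAPK10, whose brightest probe set read lower with RD, another read 26.7 and 90.8 (at least 1.36-fold higher). With the median over a gene's probe sets, 2 MAP kinase genes were counted as lower, when 13.6% of all genes were. These are transcript signals, and kinase activity was not measured.

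Of 10 genes that act on the turnover of FOS and JUN transcripts or proteins, 3 were counted as higher (30.0%, against 12.1% of all genes). Only 1 was counted as lower (10.0%, against 13.3%), and the median log2 difference was -0.15. ZFP36, which encodes tristetraprolin, a protein that speeds the decay of transcripts with AU-rich elements, went from 575.4 in the control to 1164.5 with RD (2.02-fold higher), and no longer passed 2-fold with median centring, quantile normalization or the added 17.1. ITCH, a ubiquitin ligase for JUN proteins, read 1073.4 and 4028.4 (3.75-fold higher), and its 5 other probe sets were 1.68-fold to 3.90-fold higher. Those of ITCH without a shared-sequence suffix were 1.68-fold to 1.89-fold higher, short of 2-fold. FBXW7, which selects JUN among other proteins for ubiquitination, read 128.8 and 473.1 (3.67-fold higher) by its brightest probe set, but 1.61-fold and 1.46-fold higher by the next 2 in brightness. HNRNPD, which encodes the AU-rich element binding protein AUF1, read 7808.6 and 3468.7 (2.25-fold lower), whereas its brightest probe set without a shared-sequence suffix went from 394.0 to 675.8 (1.72-fold higher). All its other probe sets that reached the floor were lower. Those without a suffix read 672.5 and 186.6 (3.60-fold lower), and 283.6 and 47.7 (at least 4.24-fold lower). Those with a suffix were 2.60-fold and 2.90-fold lower.

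Of 19 genes at or above the floor that are widely described as AP-1 targets, 9 were counted as higher (47.4%, against 12.1% of all genes). Another 4 were counted as lower (21.1%, against 13.3%) and 6 were short of 2-fold, with a median log2 difference of 0.29. The list was chosen with earlier results of these data known, so these shares are a description and no test of enrichment. Against the floor, 8 of the 9 stayed past 2-fold, the exception being SPP1 (osteopontin) at no less than 1.89-fold. Judged by brightest probe sets, the largest increases of the list were in 3 matrix metalloproteinase genes, each with 1 probe set. MMP10 went from 292.9 in the control to 8407.7 with RD (28.7-fold higher), MMP3 read 359.5 and 6285.2 (17.5-fold), and MMP1 read 330.6 and 3739.8 (11.3-fold). CXCL8, the interleukin 8 gene, read 2462.1 and 20492.8 (8.32-fold higher) by its brightest probe set and 899.8 and 15824.1 (17.6-fold) by its other, so the order depended on the probe set.

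The 4 genes of the target list that were counted as lower were PLAU, CCND1, EDN1 and PLAUR. PLAU, the urokinase gene, went from 12853.3 in the control to 1066.8 with RD (12.0-fold lower), and PLAUR, its receptor gene, read 3206.3 and 1364.2 (2.35-fold lower). The only PLAUR probe set without a shared-sequence suffix read 705.2 and 360.5 (1.96-fold lower), and both PLAU probe sets carry such a suffix. CCND1, the cyclin D1 gene, read 5196.0 and 572.0 (9.08-fold lower). EDN1, the endothelin 1 gene, read 766.8 and 231.6 (3.31-fold lower). Genes of the list thus differed in both directions, and whether any of these differences followed from AP-1 proteins was not tested.

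**Figure D4:**
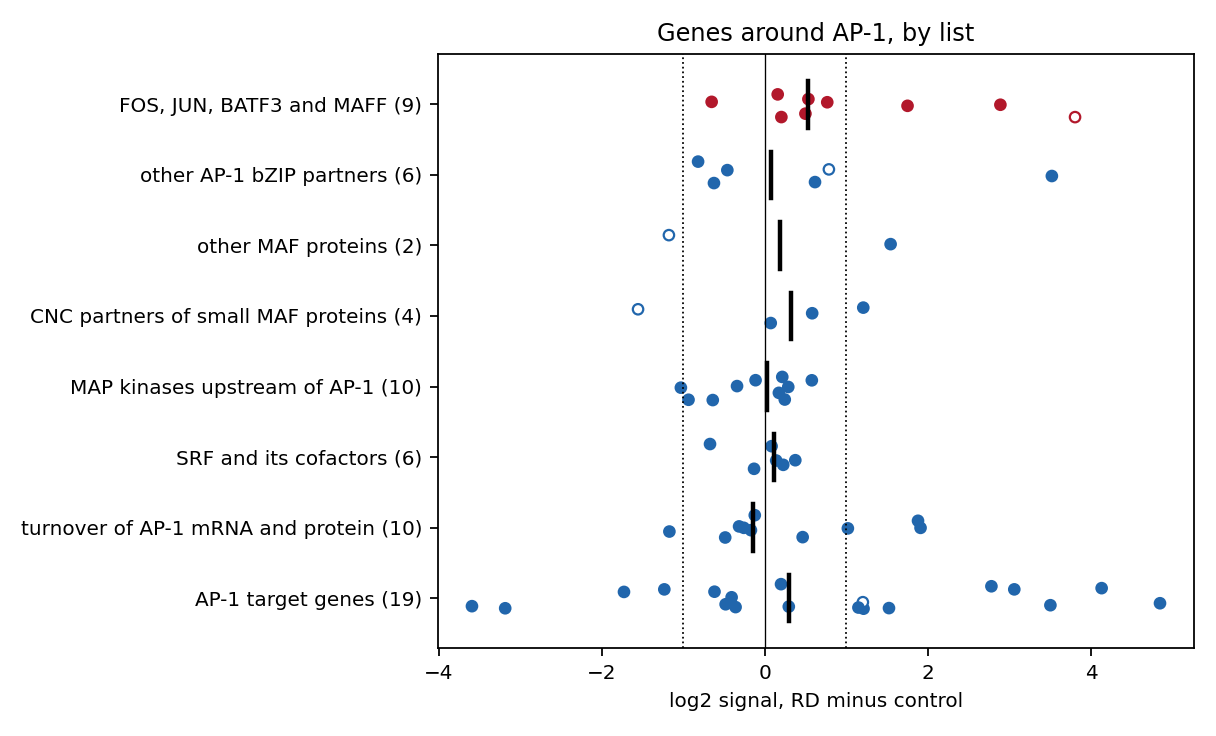
Difference in log2 signal (RD minus control, horizontal) for each list, over genes that reached the floor (their number follows the name). Thick bars show medians and dotted lines 2-fold. Genes with 1 of their signals below the floor are drawn open, and for them the plotted value is no bound. The AP-1 target genes spread farthest to both sides, and the SRF and MAP kinase lists stay near or within the dotted lines.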

How the data were processed

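Total RNA from 2 samples of PC-3 cells, 1 control and 1 exposed to RD for 24 h, had been hybridised to Affymetrix HG-U133 Plus 2.0 arrays. The authors deposited linear intensities for 54613 probe sets, and the submitters' processing notes name MAS5 as the method. Its version and its scaling target are not stated in these sources. MAS5 subtracts mismatch signals, so ratios of signals under the floor are noisy. The number of arrays limits the precision.

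Log2 differences were computed with no offset. Gene names came from the platform annotation, updated with RefSeq for GRCh38.p14 (41037 of 41091 single-gene probe sets matched, no symbol changed), and the coordinates given are those of the RefSeq promoter stretches, since no build applies to the values. Each gene was represented by its probe set of highest mean log2 signal. The text names every member with all its probe sets and, of the other lists, the genes past 2-fold, or the 3 largest where over 5 were past it in 1 direction. The members and lists were chosen with earlier results of these data known. Alternatives tried were quantile normalization, centring of each array on its median, adding 17.1 (the 25th percentile) to each signal, signals raised to the floor, no floor, a floor of 377.4, the median over a gene's probe sets, only those without a shared-sequence suffix, and thresholds of 1.5-fold and 3-fold. The code was tested on simulated data. The software was Python 3.11.15 with pandas 2.3.3, numpy 2.4.6 and matplotlib 3.10.9.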

Additional observations from a re-analysis of the deposited data

How the results depend on the processing

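FOS and MAFF were counted as higher under each of the 10 alternatives, and FOSB under all but the floor of 377.4, which it did not reach. The sign of the difference of each member was the same under every alternative that gave it a value. With a threshold of 1.5-fold, 4 of the 9 members were higher (JUNB was added), against 22.8% of all genes. One member (BATF3) was lower, against 24.7%. By probe set, 9 were higher and 1 lower, with no share over all probe sets computed at this threshold. With only probe sets without a shared-sequence suffix, the median log2 difference of the members was 1.03 over 8 genes, because JUND dropped out and JUN stood at 1.29 and was counted as higher. The log2 difference of FOSB was 2.82 with the offset and 1.64 with signals raised to the floor, and that of FOSL2 was 0.57 as the median over its probe sets. Of 195 recomputed values of the other lists, 33 moved. Medians that were near 0 changed sign in 3 lists. That of the turnover list went from -0.15 to 0.33 with only probe sets without a suffix, that of the other bZIP partners from 0.08 to -0.06 with signals raised to the floor, and that of the MAP kinases from 0.03 to -0.01 with centring and with quantile normalization. Without suffixed probe sets, HNRNPD stood at 0.78 and NFE2L3 at 0.67 on the log2 scale, and neither was counted as lower. The HNRNPD value came from its brightest such probe set, and its other such probe sets that reached the floor were lower. Without suffixed probe sets, the AP-1 target list had 6 genes counted as higher and 2 as lower, when 12.7% and 13.9% of all genes were. PLAU, CXCL8, VEGFA and SPP1 then had no value, and PLAUR fell short of 2-fold, as did ITCH of the turnover list. No paired analysis was possible because each group had 1 array. MAFK was not measured by a single-gene probe set, and differences under about 0.34 on the log2 scale could not be told from the scatter of bright probe sets.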
